A study of Mus musculus with 4 samples.

Results

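The cytoplasmic ribosomal protein genes encode the protein part of the ribosome, and 84 of the 23259 genes with a value in all 4 libraries belong to them. They were taken by symbol, as Rpl, Rplp or Rps followed by a number with at most a letter and a digit after it, together with Rpsa. Of the 84, 51 carry names of the large subunit and 33 of the small subunit. RNA was sequenced from 4 clones of male embryonic stem cells of the mouse, 2 of them WT and 2 KO for Gcn5, to see which expression levels change when this histone acetyltransferase is missing. Both genotypes came from the Gcn5 flox/flox founder lines 4 and 6, in which both copies of Gcn5 carry loxP sites. The KO clone of each line was picked from GFP-positive cells sorted 72 hours after transient transfection with a vector for a fusion of GFP and Cre under the EF1α promoter, and lacks exons 3 to 18 of Gcn5. The WT clone of each line was picked from the GFP-negative cells of that sort. Each line thus gives 1 clone per genotype, and the deletion cannot be told apart from what a clone acquired or from its exposure to Cre. All lines were grown in serum and LIF on mitotically inactive fibroblast feeders.

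The ribosome joins amino acids in the order that an mRNA prescribes. Its small subunit reads the mRNA, and its large subunit forms the peptide bond and guides the growing chain out through a tunnel. One copy of nearly every ribosomal protein is needed per ribosome, with the paired acidic stalk proteins as the known exception, and the genes are transcribed strongly in dividing cells. Their mRNAs start with a run of pyrimidines, the terminal oligopyrimidine tract, through which mTOR and the RNA-binding protein Larp1 control their translation. Most of these genes also have intronless copies elsewhere in the genome, the processed pseudogenes. Reads that match both a gene and such a copy can be split between them or dropped, and the authors' treatment of them was not given in the sources used here, so the level of any single member is uncertain to that extent.

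The values are spike-in normalized FPKM, a level per length of transcript, so genes can be set side by side. Short transcripts and small nucleolar RNAs encoded in introns can move such levels, and their part in the order of the members was not tested. Kat2a, which encodes Gcn5, stood at 38.7 and 34.4 FPKM in the WT clones of lines 4 and 6 and at 11.5 FPKM in both KO clones, so both KO clones lie below both WT clones, as labelled (log2 difference -1.58, SE 0.23, limma adjusted p = 0.0112). The number of genes of at least 1 FPKM ran from 11562 to 12174 per library, and the number of reads behind the values is unknown. Of 8 stem cell markers all 8 were above 1 FPKM, the lowest at a mean of 33.2 FPKM, and they summed to 5206 and 4120 FPKM in WT of lines 4 and 6 and to 3274 and 3402 FPKM in KO, with a median log2 difference of -0.66 in line 4 and -0.27 in line 6. The 12 fibroblast markers, 9 of them above 1 FPKM, summed to 156 and 86.0 FPKM in the WT clones of lines 4 and 6 and to 118 and 117 FPKM in the KO clones. In these bulk libraries fewer cells of a type and less RNA per cell cannot be told apart, and the part of either marker group's cells in the results was not tested.

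Ribosomal protein transcripts were among the most abundant in these cells. Of the 134 genes whose mean reached 1000 FPKM, 67 were ribosomal protein genes, and of the 193 genes of at least 500 FPKM 74 were. Together the 84 members held 21.5% of all summed FPKM in WT and 20.8% in KO of line 4, and in line 6 19.98% in WT and 19.6% in KO. Without the 747 entries of short RNAs (microRNA, small nucleolar, small nuclear and similar RNAs) the share ran from 23.5% to 26.1%. The share was thus higher in line 4 than in line 6 for either genotype, and lower in KO than in WT of the same line.

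The level differed little from member to member. The median member stood at a mean of 1568 FPKM, the quartiles at 1141 and 1994 FPKM, and 69 of the 84 lay within 2-fold of the median. Small subunit genes had the higher median, 1728 FPKM against 1397 FPKM for the large subunit. The ratio of the large to the small subunit median was 0.781 and 0.825 in the WT clones of lines 4 and 6 and 0.793 and 0.813 in the KO clones, so both genotypes had about the same balance. Rps12, of the small subunit, was the most abundant member and took place 5 among all genes. Its level was 5037 and 4334 FPKM in WT of lines 4 and 6 and 3044 and 3235 FPKM in KO. Rpl41, which encodes a very short and basic protein, followed with a mean of 3030 FPKM, then Rps2, at the entry of the mRNA channel, with 3005 FPKM, and Rpl12, at the base of the stalk, with 2899 FPKM.

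**Figure D1:**
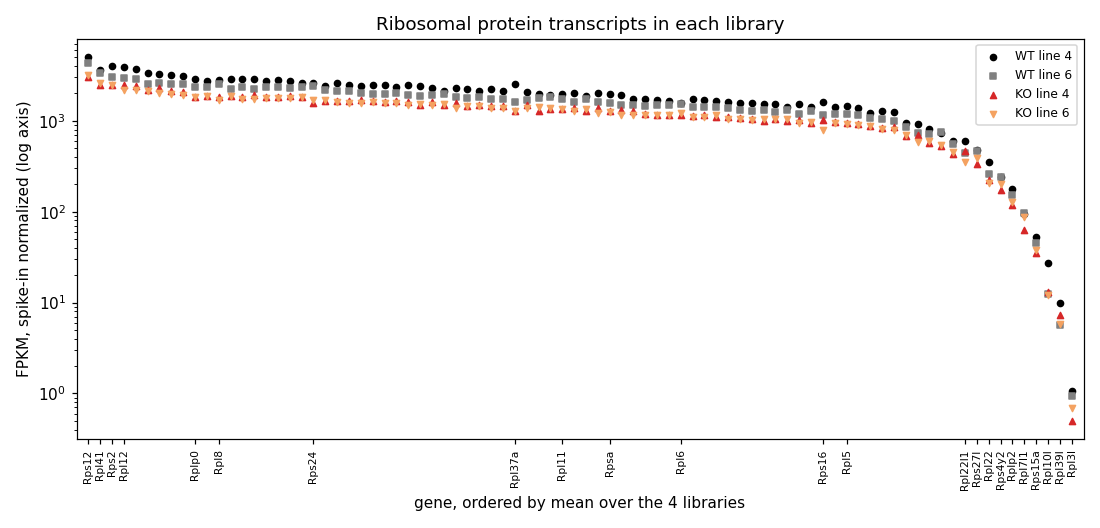
FPKM of each of the 84 ribosomal protein genes (x axis, ordered by mean, with some named) in the 4 libraries on a log axis, with 1 symbol per library. Most genes lie near the median of 1568 FPKM, with WT line 4 highest for 81 of 84 genes, and the curve drops over the last genes, from Rpl22 to Rpl3l.

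Not only paralogs stood at the low end. Rps15a and Rplp2 encode ordinary ribosomal proteins, yet Rps15a was listed at 52.2 and 45.7 FPKM in WT of lines 4 and 6 and at 35.1 and 37.8 FPKM in KO. Rplp2, an acidic stalk protein, was listed at 177 and 151 FPKM in WT and at 118 and 127 FPKM in KO, far below its partners Rplp0 and Rplp1 with means of 2229 and 2194 FPKM. The processed pseudogene entry Rplp2-ps1 held more signal than Rplp2 itself in every library, with 747 and 591 FPKM in WT of lines 4 and 6 and 482 and 456 FPKM in KO. How reads were divided between Rplp2 and this copy was not tested, so the order of Rplp2 among the stalk genes rests on the counting.

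The paralogs, duplicates that stand in for or accompany a standard ribosomal protein, were all below their parent gene except 1. Rpl3l, which replaces Rpl3 in striated muscle, stood at 1.05 and 0.928 FPKM in WT of lines 4 and 6 and at 0.502 and 0.688 FPKM in KO, against a mean of 1930 FPKM for Rpl3. Its mean of 0.792 FPKM is under the minimum of 1 FPKM for the test, and it is the only member of the 84 that was not tested. Rpl10l, an intronless copy of the X-linked gene Rpl10 that serves male germ cells, stood at 27.5 and 12.4 FPKM in WT and at 13.2 and 12.1 FPKM in KO. Only the WT clone of line 4 stands apart, and the other 3 libraries lie close together. Rpl39l, a germ cell copy of the X-linked gene Rpl39, stood at 9.99 and 5.64 FPKM in WT and at 7.20 and 5.73 FPKM in KO, so both libraries of line 4 were above both of line 6. Their parents Rpl10 and Rpl39 had means of 1782 and 1216 FPKM.

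The other paralogs were more abundant. Rpl22l1 is the paralog of Rpl22, an RNA-binding large subunit protein, and here it was the more abundant of the pair. Rpl22l1 stood at 606 and 438 FPKM in WT of lines 4 and 6 and at 460 and 348 FPKM in KO. Rpl22 stood at 351 and 258 FPKM in WT and at 224 and 205 FPKM in KO, below Rpl22l1 in every library. Rps27l had a mean of 419 FPKM against 1728 FPKM for Rps27, and Rpl7l1, a nucleolar relative of Rpl7, a mean of 85.2 FPKM against 2221 FPKM for Rpl7. Rps4y2, which RefSeq lists under the name Rps4l as a transcribed pseudogene, had a mean of 214 FPKM against 2189 FPKM for Rps4x, so reads of Rps4x may be part of it.

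Promoter sequences from RefSeq (GRCm38.p6, 250 bases before to 50 after the annotated start) were found for 63 of the 84 members, and 26962 other genes have one. The authors' alignment used the build mm9, and no coordinate below comes from their files. The hexamer CTTCCG or its reverse complement CGGAAG, the core that ETS factors such as Gabpa bind, was present in 42 of the 63, or 66.7%, against 17% of the other promoters. The hexamer GGGCGG of Sp1, on either strand, was in 60.3% against 35.9%, and AAGATGGC, the core of Yy1, on either strand, in 7.94% against 2.87%. The TATA box TATAAA on either strand was in 9.52% against 14.2%, and the E-box CACGTG in 7.94% against 7.24%. The other promoters were not limited to genes expressed in these cells, and no set of like abundance was compared. A match is a description of the letters and not of binding. The following windows, 70 bases before to 30 from the start, 5′ to 3′, show 3 members with the ETS core in capitals, namely Rpl37a, which was high in 1 library, the abundant Rpl41 and Rpl11 of the 5S particle:
Rpl37a (chr1:72711190-72711289, + strand): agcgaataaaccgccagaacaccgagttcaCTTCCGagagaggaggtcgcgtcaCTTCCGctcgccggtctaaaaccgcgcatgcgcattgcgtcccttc
Rpl41 (chr10:128549139-128549238, - strand): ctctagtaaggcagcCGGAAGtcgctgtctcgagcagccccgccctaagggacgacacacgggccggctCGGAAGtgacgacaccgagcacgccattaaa
Rpl11 (chr4:136053364-136053463, - strand): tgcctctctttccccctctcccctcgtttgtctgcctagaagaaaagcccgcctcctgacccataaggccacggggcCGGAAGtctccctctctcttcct

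Runs of at least 8 pyrimidines on the coding strand were sought from 20 bases before to 50 bases after the start. Such a run was found in 46 of the 63 members, or 73%, against 25.3% of the other promoters, again without regard to expression. The stretch CTTTTCC in the same span was in 9.52% against 0.831%. RefSeq starts can lie some bases away from the true start, so the position of the run within the mRNA is not given. Examples are the most abundant member Rps12, Rps24, named for its distance from genes of like abundance, and Rpl39, with these runs in capitals:
Rps12 (chr10:23787180-23787279, - strand): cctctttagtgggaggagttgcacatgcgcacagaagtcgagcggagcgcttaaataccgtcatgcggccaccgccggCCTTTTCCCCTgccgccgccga
Rps24 (chr14:24490608-24490707, + strand): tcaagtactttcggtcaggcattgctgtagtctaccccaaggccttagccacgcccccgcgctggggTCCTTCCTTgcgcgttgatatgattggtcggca
Rpl39 (chrX:37085193-37085292, - strand): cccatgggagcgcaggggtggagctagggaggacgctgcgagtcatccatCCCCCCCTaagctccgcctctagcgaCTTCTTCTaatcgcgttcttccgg

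The starts of the 3 least abundant paralogs are shown for comparison with the abundant members. The promoters of Rpl10l and Rpl3l held no ETS core in 300 bases and that of Rpl39l held 2, outside the window printed here. The longest pyrimidine run near the start was 5 bases in Rpl10l, 7 in Rpl39l and 9 in Rpl3l, where it lies beyond the printed stretch, and the windows therefore have no capitals:
Rpl10l (chr12:66284372-66284471, - strand): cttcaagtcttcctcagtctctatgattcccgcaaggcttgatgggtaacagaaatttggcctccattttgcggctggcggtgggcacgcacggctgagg
Rpl39l (chr16:10170158-10170257, + strand): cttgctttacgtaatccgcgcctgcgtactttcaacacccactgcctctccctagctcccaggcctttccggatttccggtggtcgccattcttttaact
Rpl3l (chr17:24727756-24727855, + strand): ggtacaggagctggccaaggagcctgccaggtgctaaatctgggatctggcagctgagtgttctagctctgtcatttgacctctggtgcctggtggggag

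In KO, ribosomal protein transcripts were listed at lower values than in WT of the same line, by a similar ratio for nearly all members. In line 4 all 83 tested members were lower in KO, with a median log2 difference of -0.56, which is a ratio of 0.677. In line 6 the count was 82 of 83, with a median of -0.35 and a ratio of 0.784. So 82 of 83 were lower in both lines, against 86.3% of all tested genes. All 119 other genes of at least 500 FPKM were lower in both lines too. The difference was larger in line 4 for 82 of 83, against 89% of all tested genes. Both KO values lay below both WT values for 80 of the 83 tested members, against 59.8% of all tested genes and 88.2% of the 119 other genes of at least 500 FPKM. The exceptions were Rpl10l, Rpl22l1 and Rpl39l. There is 1 clone per genotype and line, so the difference within a line has no test. Log2 differences here are of FPKM + 1, and a member below about 10 FPKM, such as Rpl39l, is understated by that scale.

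No member passed the test between KO and WT over both lines. In limma on log2(FPKM + 1), with 11932 genes tested, 0 of 83 members had an adjusted p under 0.05, against 0.0168% of all tested genes, and their limma adjusted p ran from 0.445 to 0.575. Without adjustment, 69 of 83 members had a limma p under 0.05, against 5.54% of all tested genes. Of the 74 members of at least 500 FPKM it was 91.9%, and of the 119 other genes of at least 500 FPKM 70.6%. These sets share the minimum but not the level: 67 of the 74 members reached 1000 FPKM, as did 134 genes in all. This test is against no change, so these shares also hold the shift that most genes share, and the p-values measure only the spread between these clones. With the founder line as a block in the model, 5 members passed, all lower in KO: Rpl37a, Rpl8, Rps12, Rps16 and Rps24. This compares with 0.763% of all tested genes that passed lower in that fit and 10.9% of the other genes of at least 500 FPKM that passed in either direction. A robust estimate of the spread added Rpl12, Rplp1 and Rps18, so that 8 passed lower, against 0.738% of all tested genes. After each library was centred on its median, the blocked fit called 0 of the 83.

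Other abundant genes differed between KO and WT by about as much. Over all tested genes the line 4 median was -0.44 and the line 6 median -0.19 (log2 difference), and it was larger for the most abundant genes. For the 119 other genes of at least 500 FPKM the line 4 median was -0.54 and the line 6 median -0.36, and the 74 members of at least 500 FPKM had -0.56 and -0.35. In line 4 the median of the members was slightly lower, and in line 6 the medians were nearly equal. Of these other genes, 77 are no short RNA entries, and their medians of -0.52 and -0.33 lay above those of the members in both lines. In genes that are no members the median went from -0.40 between 1 and 10 FPKM to -0.48 between 100 and 500 FPKM in line 4, and from -0.14 to -0.26 in line 6. With a pseudocount of 0.1 FPKM line 4 went the other way over this range, from -0.50 to -0.48, and line 6 went from -0.18 to -0.26. The median of the other genes of at least 500 FPKM was the lowest of these level classes in both lines with either pseudocount.

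**Figure D2:**
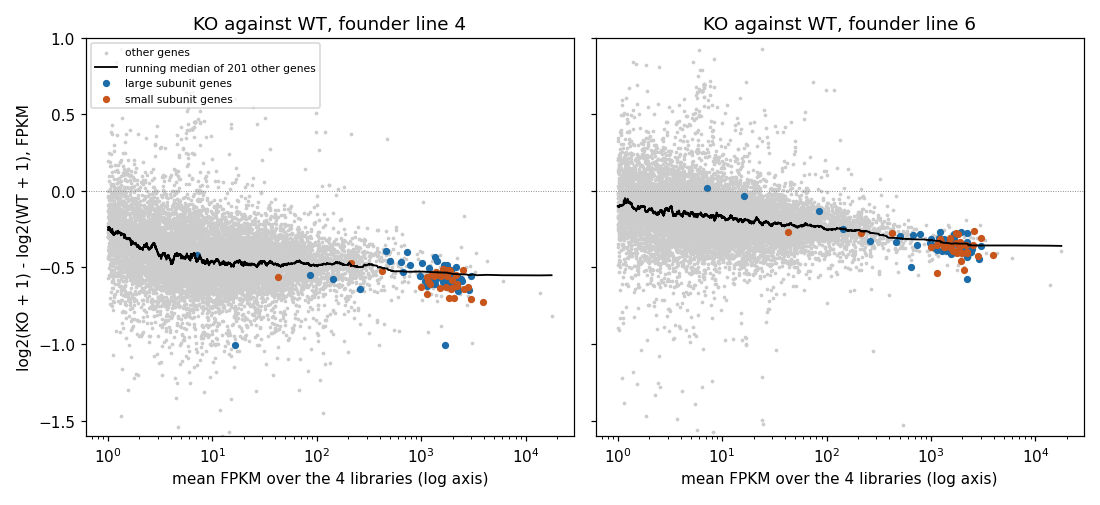
Log2 difference of KO and WT (FPKM + 1) against the mean level on a log axis, in founder line 4 (left) and founder line 6 (right). Grey points are other tested genes, the black line is their running median, and coloured points are large and small subunit genes. The members lie close to the black line at the abundant end, and 7 and 24 genes fall outside the vertical axis.

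Each member was next set against the median of the 200 other genes nearest to it in mean level. For the abundant members these reached from about 300 FPKM upward, since few other genes are as abundant. In line 4 the median distance was -0.041, with 63 of 83 members below their reference, against 50.2% of all tested genes. In line 6 it was -0.040, with 66 of 83 below, against 50.4%. By the same measure the 119 other genes of at least 500 FPKM had median distances of -0.028 in line 4 and -0.044 in line 6, with 75 and 78 of 119 below, values close to those of the members; the difference between these sets was not tested. In both lines 51 of 83 members lay below their reference and 5 above, against 25.7% and 25% of all tested genes. This count depended on the reference: it was 21 of 83 with the 50 nearest genes, 33 with a smooth curve through all other genes and 61 without short RNA entries in the reference. With the 50 nearest genes the medians were -0.0078 in line 4 and 0.0039 in line 6. Without the WT clone of line 4 the distance over the remaining 3 libraries was 0.00069, and without the KO clone of line 6 it was -0.0054. The sign of the small distance thus depended on the reference genes and on single libraries.

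The values of the subunits were close. Small subunit genes had a median log2 difference of -0.58 (line 4) and -0.36 (line 6), and large subunit genes had -0.56 and -0.34. Summed over its genes, the small subunit reached a KO/WT ratio of 0.658 in line 4 and 0.774 in line 6, and the large subunit 0.673 and 0.779. Relative to genes of like abundance, 21 of 33 small subunit genes and 30 of 50 tested large subunit genes lay below in both lines, and 0 and 5 lay above in both. No test of the difference between the subunits was made.

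The log2 levels of the members were closely correlated between libraries. Across the 84 genes, log2 levels of WT and KO of the same line had r = 0.999 for either line, and those of the WT clones had r = 0.996. These r are of levels and not of ranks, the low paralogs are among the genes, and genes are no independent replicates. The spread of the difference was narrow. Among the 74 members of at least 500 FPKM the interquartile range of the log2 difference reached 0.0867 in line 4 and 0.0609 in line 6. The 119 other genes with the same minimum level had 0.150 and 0.102. The differences of the members in line 4 and line 6 had r = -0.032 over the 83 tested members, against r = 0.11 over all tested genes. Without Rpl10l, Rpl37a and Rpl39l it was 0.21 over 80, so its sign rests on these 3 genes.

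Grouped by role, the members had similar values. The stalk, which recruits and activates the translational GTPases, has Rplp0, Rplp1 and Rplp2. Rplp0, the scaffold of the stalk, was listed at 2872 and 2364 FPKM in WT of lines 4 and 6 and at 1828 and 1853 FPKM in KO (log2 difference -0.50, SE 0.19, limma adjusted p = 0.445). Rplp1 was listed at 2856 and 2340 FPKM in WT and at 1848 and 1733 FPKM in KO, a log2 difference of -0.53. All 3 stalk genes lay below genes of like abundance in both lines, Rplp2 in line 6 by -0.0016 only. So did 51 of all 83 tested members. Rpl5 and Rpl11 travel with the 5S RNA and, when not built into ribosomes, restrain Mdm2 and so raise p53. Rpl5 was listed at 1445 and 1185 FPKM in WT and at 939 and 927 FPKM in KO, a log2 difference of -0.49. Rpl11 was listed at 1960 and 1723 FPKM in WT and at 1342 and 1351 FPKM in KO, a log2 difference of -0.45. For both the KO clones of the lines were nearly equal and the WT clones were not. The 83 tested members shared this, with a median log2 difference of line 6 from line 4 of -0.26 in WT and -0.022 in KO.

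Among the other roles, the 7 genes at the rim of the exit tunnel had a median log2 difference of -0.57 (line 4) and -0.34 (line 6), with 6 of 7 below genes of like abundance in both lines. Rps2, Rps3 and Rps23, which line the path of the mRNA or the decoding site, had medians of -0.63 and -0.37. Rpsa, also known as a laminin receptor, was listed at 1977 and 1556 FPKM in WT of lines 4 and 6 and at 1275 and 1255 FPKM in KO, a log2 difference of -0.47 (SE 0.19, limma adjusted p = 0.445). Below in both lines were 25.7% of all tested genes and 51 of the 83 tested members, a count that depended on the reference genes. These small groups are described and not tested.

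The members farthest below genes of like abundance over the 4 libraries were Rpl37a, Rps24, Rps16, Rpl8, Rpl10l and Rps12. Rps24, a small subunit protein needed for processing of the 18S RNA precursor, was listed at 2580 and 2407 FPKM in WT of lines 4 and 6 and at 1586 and 1679 FPKM in KO. Both KO clones lie well below both WT clones, with distances from genes of like abundance of -0.18 in line 4 and -0.21 in line 6. Its log2 difference was -0.61 (SE 0.18, limma adjusted p = 0.445, and 0.0263 with the block). Rps16, near the decoding site, was listed at 1617 and 1155 FPKM in WT and at 1015 and 794 FPKM in KO, with distances of -0.15 and -0.23. Here line 6 was below line 4 in both genotypes, and the KO clone of line 4 was close below the WT clone of line 6. The log2 difference was -0.60 (SE 0.21, limma adjusted p = 0.445, and 0.0386 with the block).

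Rpl8, near the peptidyl transferase centre, stood at 2812 and 2538 FPKM in WT of lines 4 and 6 and at 1825 and 1705 FPKM in KO. It had the largest distance of any member in line 6, -0.26, against -0.099 in line 4, and a log2 difference of -0.60 (SE 0.19, limma adjusted p = 0.445, and 0.0301 with the block). For Rps12, the most abundant member, the distances were -0.20 and -0.11 and the log2 difference -0.57 (SE 0.19, limma adjusted p = 0.445, and 0.0355 with the block). With each library centred on its median, these members lay at log2 differences between -0.31 and -0.27, with limma adjusted p = 0.832 with the block for each. With loess normalization against abundance and the block they lay between -0.16 and -0.086, with limma adjusted p = 0.959. Leaving out the WT clone of line 6 gave 47 of 83 members with an adjusted p under 0.05, all lower, against 1.11% of all tested genes and 41.2% of the other genes of at least 500 FPKM. That fit sets both KO clones against the WT clone of line 4 alone, which was highest for 81 of the 84 members.

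Rpl37a, a zinc finger protein of the large subunit, was set apart by 1 library. Its level was 2543 FPKM in WT of line 4, 1597 FPKM in WT of line 6, 1268 FPKM in KO of line 4 and 1282 FPKM in KO of line 6. The WT clone of line 4 alone is high, and the KO clones are nearly equal. The distance from genes of like abundance was -0.48 in line 4 and -0.0049 in line 6. Its log2 difference over both lines was -0.66 (SE 0.21, limma adjusted p = 0.445, and 0.0108 with the block). Rpl10l had the same form, with -0.51 in line 4 and 0.16 in line 6, and without the WT clone of line 4 its log2 difference was 0.023.

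**Figure D3:**
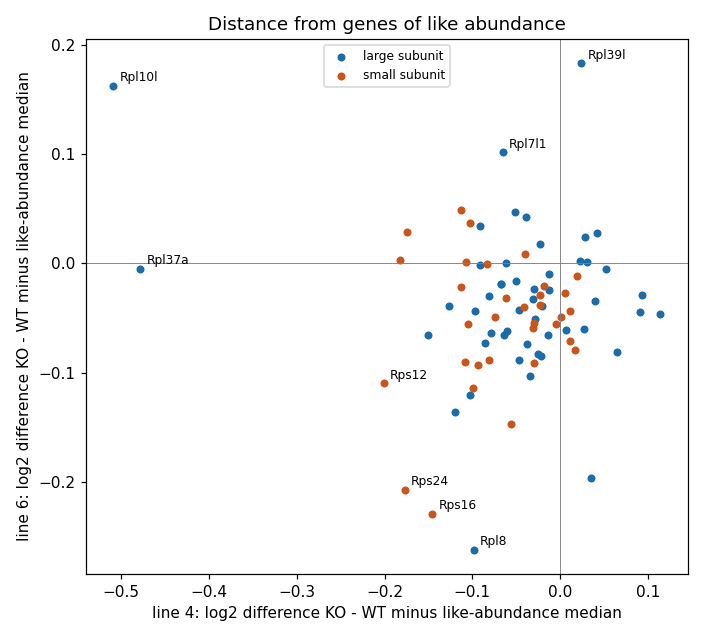
Distance of the log2 difference of KO and WT from the median of the 200 other genes nearest in level, in line 4 (x axis) and line 6 (y axis), for the 83 tested members. Most points lie within 0.1 of 0 on both axes. Rpl10l and Rpl37a are far below 0 in line 4 only. Rps24, Rps16 and Rps12 are among those low in both, and Rpl8 is the lowest in line 6.

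Farthest above genes of like abundance included Rpl39l at 0.11, Rpl13 at 0.035 and Rpl6 at 0.032. Rpl6, of the large subunit, was listed at 1552 and 1547 FPKM in WT of lines 4 and 6 and at 1150 and 1221 FPKM in KO, so its WT clones were as good as equal. Apart from Rpl39l these distances are small, and none of these genes passed the test (limma adjusted p = 0.445 for Rpl13 and Rpl6 and 0.575 for Rpl39l). Of the 6 tested paralogs, 0 lay below genes of like abundance in both lines and 1, Rpl39l, above in both.

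**Figure D4:**
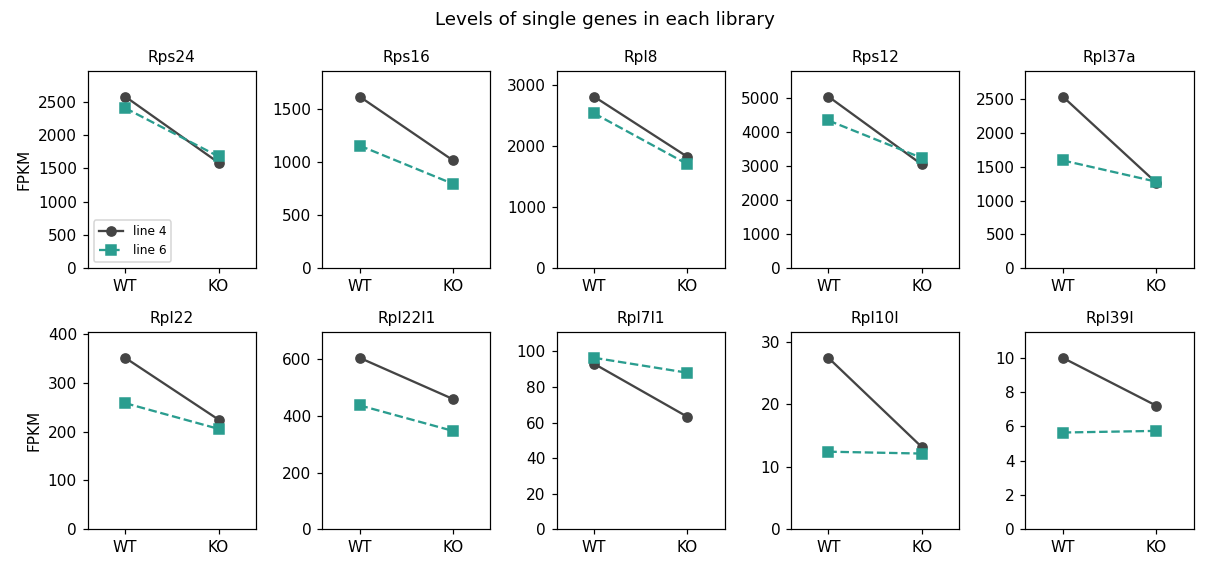
FPKM of 10 members in WT and KO, with line 4 as solid lines and circles and line 6 as dashed lines and squares. Rps24, Rps16, Rpl8 and Rps12 are lower in KO in both lines. The line 4 WT clone stands out for Rpl37a and Rpl10l, and Rpl39l is level in line 6 at 5.64 and 5.73 FPKM.

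Between the founder lines, most members were lower in line 6, by more in WT than in KO. In WT 80 of the 83 tested members were lower in line 6 than in line 4, with a median log2 difference of -0.26, against 67.4% of all tested genes with a median of -0.14. In KO 53 of 83 were lower, with a median of -0.022, against 36.7% of all tested genes with a median of 0.12. The 119 other genes of at least 500 FPKM had medians of -0.24 in WT and -0.0088 in KO. Relative to genes of like abundance the members lay lower in line 6 by a median of -0.041 in WT, with 54 of 83 below. In KO the median was -0.040, with 61 of 83 below, against 50.3% of all tested genes for either genotype. By the same measure the 119 other genes of at least 500 FPKM lay at -0.035 in WT and -0.021 in KO. Of these 119 genes 74 were below in WT and 72 in KO, and the difference between these sets was not tested. A line difference that is larger in WT and a KO difference that is larger in line 4 come from the same 4 libraries and are not independent. Fitted over both genotypes, the median of the members was -0.15, and 0 of 83 had a limma adjusted p under 0.05, against 9.13% of all tested genes (5.46% lower in line 6). Unadjusted, 5 of 83 members had a p under 0.05, against 21.4% of all tested genes.

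Rpl10l, Rpl39l, Rpl22l1 and Rps16 were farthest below line 4 in line 6. Rpl10l had a log2 difference of line 6 from line 4 of -0.60 (SE 0.22, limma adjusted p = 0.0592), with the WT clone of line 4 far above the other 3 libraries. Rpl39l had -0.51 (SE 0.22, limma adjusted p = 0.145) and was lower in line 6 in both genotypes. Rpl22l1 had -0.44 (SE 0.17, limma adjusted p = 0.0948), with -0.47 for the WT pair and -0.40 for the KO pair, so this difference was alike in both. Rps16 had -0.42 (SE 0.17, limma adjusted p = 0.0906), with -0.49 and -0.35. Rpl22l1 and Rps16 were thus lower in line 6 in either genotype.

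In the other direction were Rpl7l1, Rps4y2, Rps27l and Rpl6. Rpl7l1 was listed at 93.1 and 96.4 FPKM in WT of lines 4 and 6 and at 63.3 and 88.0 FPKM in KO, so the KO clone of line 4 was the low one (log2 difference of the lines 0.26, SE 0.19, limma adjusted p = 0.47). Rps4y2, Rps27l and Rpl6 had differences of 0.13, 0.078 and 0.041. With each library centred on its median, 5 of 83 members passed, against 29.6% of all tested genes. Rpl10l, Rpl22l1, Rpl39l and Rps16 were lower in line 6 there, with limma adjusted p of 0.0493, 0.0295, 0.0184 and 0.0300, and Rpl7l1 was higher with 0.0330. Quantile normalization called 7 members and loess normalization 9, against 28.7% and 29.7% of all tested genes. Rpl22l1, Rpl39l and Rps16 passed under each of these rescalings.

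**Figure D5:**
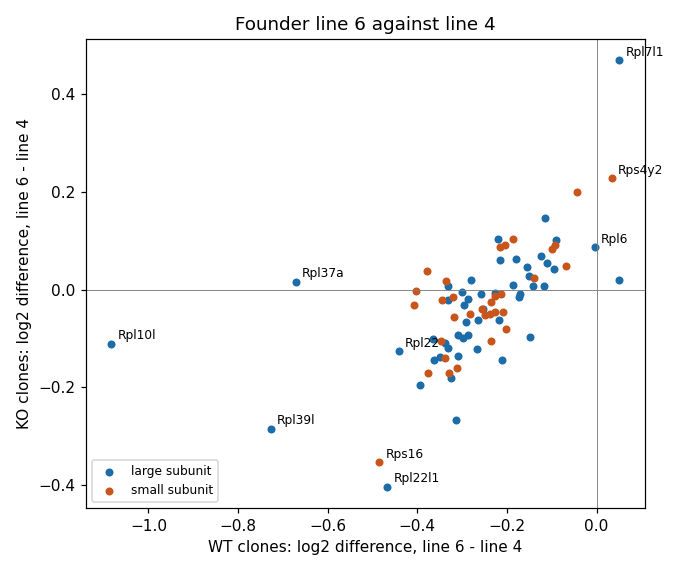
Log2 difference of line 6 from line 4 in WT (x axis) and in KO (y axis) for the 83 tested members. The cloud lies left of 0 on the x axis, with a median of -0.26, and around 0 on the y axis, with a median of -0.022. Rps16, Rpl22l1 and Rpl39l are low on both axes and Rpl7l1 is high on the y axis.

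Other genes of the translation machinery were read the same way. Among ribosomal genes outside the symbol rule, Fau, which encodes a fusion with the small subunit protein eS30, and Gnb2l1, which encodes Rack1, had means of 963 and 1815 FPKM and log2 differences of -0.47 and -0.48, like the members. Rpl36al, an intronless copy of Rpl36a, was listed at 1093 FPKM in WT of line 6 and at 387, 312 and 378 FPKM in WT of line 4 and KO of lines 4 and 6, so again 1 WT library stood apart. Its log2 difference over both lines was -0.92 (SE 0.31, limma adjusted p = 0.445, and 6.03e-05 with the block). Taken singly, the founder lines gave Rpl36al -0.31 (line 4) and -1.53 (line 6). The blocked fit used the same spread for all genes of a level, so this gap did not widen the spread behind its p-value. On values centred on the library median, the limma adjusted p of Rpl36al with the block was 0.847. Of 16 other mRNAs with a terminal oligopyrimidine tract, 0 passed the test in either direction. Unadjusted, 9 had a limma p under 0.05, against 5.54% of all tested genes. The share was 70.6% for the 119 other genes of at least 500 FPKM, a level that some of the 16 did not reach. The 16 had a median log2 difference of -0.52 (line 4) and -0.34 (line 6). Their distances from genes of like abundance had medians of -0.023 and -0.048. Eef1b2, an exchange factor of elongation, stood lowest at a log2 difference of -0.67 (SE 0.20, limma adjusted p = 0.445), followed by Tpt1 at -0.60 (SE 0.19) and the elongation factor Eef1a1 at -0.51 (SE 0.19) with the same adjusted p. With the block 2 of the 16 passed, both lower in KO, Eef1b2 with a limma adjusted p of 0.0191 and Tpt1 with 0.0359. In that fit 0.763% of all tested genes passed lower, and 10.9% of the other genes of at least 500 FPKM passed in either direction. After each library was centred on its median, the blocked fit called 0 of the 16.

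Of 8 regulators of ribosomal protein genes or mRNAs, 0 passed the test, with 0 at an unadjusted p under 0.05, against 5.54% of all tested genes. Larp1 was listed at 37.8 and 44.5 FPKM in WT of lines 4 and 6 and at 34.1 and 41.4 FPKM in KO, a log2 difference of -0.12 (SE 0.22, limma adjusted p = 0.651). Mtor had a log2 difference of -0.43, Gabpa, the ETS factor named above, -0.41 and Yy1 -0.35 (limma adjusted p = 0.445 for each). The 76 genes of mitochondrial ribosomal proteins were far less abundant, with a median mean level of 34.7 FPKM. Their median log2 difference was -0.41 (line 4) and -0.19 (line 6). Of the 76, 0 passed the test, with 2 at an unadjusted p under 0.05, against 5.54% of all tested genes. Relative to genes of like abundance they lay at 0.067 and 0.022. In both lines 33 of 76 lay above, against 25% of all tested genes, and 10 below, against 25.7%. Their difference from the cytoplasmic set was not tested.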

How the data were processed

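RNA of 2 WT and 2 KO clones was sequenced from stranded libraries of total RNA depleted of ribosomal RNA, with ERCC spike-in RNA of mix 1 or mix 2, per the labels' protocols. Which of the mixes a clone received is not stated. The deposited FPKM had been normalized to the spike-ins, per the file headers, by a step not given in the sources used here. The submitters' processing notes name Bowtie 0.12.8, TopHat2 2.0.9, affy, HTSeq, edgeR and the build mm9, without roles. Depth is unknown and no counting interval is given.

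Of 23376 entries per file, 92 spike-ins and 25 names without a partner were left out. The 11932 genes whose mean reached 1 FPKM were tested on log2(FPKM + 1) with limma 3.58.1 in R 4.3.3 (trend, two-sided, Benjamini-Hochberg, threshold 0.05). A run on simulated data checked that planted changes were recovered. These simulated data had no line effect and no shift shared by most genes, unlike the libraries here. The line contrast has the genotype as a term. Like-abundance references are medians of the 200 nearest genes that are no members. The replicate number is the founder line, so it pairs WT and KO: their deviations correlated at r = 0.70 over tested genes. The fit without the block is the main one, and the blocked fit is given where it changes a call. Its spread was the same for all genes of a level (infinite prior df).

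Named genes: the paralogs and their parents, stalk, 5S and Rpsa genes, the 4 most and least abundant, the 6 farthest below and 4 above genes of like abundance, and the 4 with the largest line difference per direction; of other lists, up to 3 with the lowest p. Larp1 and the pseudogene entry were named after their values were seen, and some genes the rule names are not reported here. Members and lists were chosen with earlier results of these data known.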

Additional observations from a re-analysis of the deposited data

Results flagged for a closer look

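Rpl39l was the 1 member whose clones moved in opposite directions in the lines: the log2 difference of KO and WT was -0.42 in line 4 and 0.020 in line 6. Each line has 1 clone per genotype, and the difference between the lines was not tested. The level of Rpl39l was between 5.64 and 9.99 FPKM, and the change in line 6 is 1.02-fold.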

How the results depend on the processing

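With the replicate block, which pairs WT and KO of a founder line, 5 members and 95 genes passed in KO against WT, with a robust estimate of the spread 8 and 91, on centred values with the block 0 and 33, and with the block and loess normalization 0 and 0. Without the block, 0 members passed in every planned setting but 1. That exception was the fit without WT replicate 2, so leaving out single libraries gave 0 to 47 members and 0 to 133 genes, against 2 genes with all libraries. No gene passed without the filter, on centred values, or with quantile or loess normalization. The members' median log2 difference was -0.46, and it moved to -0.15 on centred values, 0.036 with quantile and -0.0085 with loess normalization, the last 2 of which remove the dependence on abundance by construction. The block did not change these medians. Without single libraries it ran from -0.58 to -0.33. Of 31 named members, 20 changed sign with quantile and 15 with loess normalization, 1 on centred values (Rpl39l), and 2 without WT replicate 1 (Rpl10l and Rpl39l).

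The distance from genes of like abundance was -0.042 over both lines and ran from -0.060 to 0.00069 without single libraries. With the 50 nearest genes the distance in line 6 was 0.0039 and 21 members lay below in both lines, and with a smooth curve 33 did, against 51. For line 6 against line 4, 1089 genes passed, 0 without the filter, 236 without the genotype term, and 3531, 3420 and 3548 on centred, quantile and loess values, with 5, 7 and 9 members. Without a single library this contrast has no residual degrees of freedom and gives values only, with medians of -0.26 to -0.022.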
